A study of Mus musculus with 32 samples.

Results

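The 7 genes described here encode parts of the phagocyte NADPH oxidase and were taken by name from the 18588 genes of the deposited signal table: Cybb, Cyba, Ncf1, Ncf4, Rac1, Rac2 and Hvcn1. All 7 were found by their Entrez numbers and none was removed by a filter, since no filter was applied. The list does not hold every component of the enzyme. Libraries had been made from CD11b-positive cells, captured with magnetic beads from pooled forebrains of female mice at 2, 4, 6 and 8 months of age. The rTg4510 mice carry human tau with a mutation linked to frontotemporal dementia behind a tetracycline-responsive element, together with a second transgene in which the CaMKIIα promoter drives the tetracycline-controlled transactivator, so mutant tau is made by forebrain neurons. WT mice were littermates with neither transgene, so the transactivator alone was not controlled for, and their strain is labelled 129/FVB F1. Of 32 libraries (4 per genotype and age) the 28 that passed the authors' QC were used, so a group holds 4 libraries at 2 and 6 months of age, and 3 at 4 and 8 months.

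The phagocyte oxidase moves electrons from NADPH in the cytosol across a membrane to oxygen and so makes superoxide. Its membrane core, flavocytochrome b558, is a pair of gp91phox (Cybb), which carries the flavin and hemes, and p22phox (Cyba), which holds gp91phox stable. In resting cells the cytosolic subunits, among them the organizer p47phox (Ncf1) and p40phox (Ncf4), which binds phosphatidylinositol 3-phosphate on phagosomes, are apart from the core, and activation brings them to the membrane with GTP-bound Rac (Rac1 or Rac2). Hvcn1 encodes the voltage-gated proton channel that carries out the charge left behind by the electrons. Microglia are the brain's resident phagocytes and a known source of superoxide in the brain.

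The labelled cell type was checked against 8 microglia markers, all of which lay above the low end of the scale in each of the 28 libraries (Cx3cr1 from 13.02 to 14.05 and Csf1r from 11.89 to 12.45 on the log2 scale). Values are log2 gene signals, median normalized by the authors, and the median gene lay at 5.63 in each library. They are not divided by gene length, so levels are compared between groups and never between genes. Read totals are not in the table, so the depth behind a signal is unknown and no counting interval is given. Libraries of the same group correlated across genes with Pearson's r of 0.936 to 0.966. Each library is a pool of animals, and the residual SD of the members over the 8 groups ran from 0.0971 (Rac1) to 0.212 (Cybb), below the median of 0.232 over all genes.

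The sequences just upstream of 3 of the members are shown to set the 2 flavocytochrome subunits, Cybb and Cyba, beside Ncf1. These are the 3 of the 7 members found in the RefSeq promoter table used here (GRCm38.p6), so Ncf4, Rac1, Rac2 and Hvcn1 were not analysed in this way. Each window holds the 250 bases before the start site on the minus strand, 5′ to 3′, at chrX:9469325-9469574 (Cybb), chr8:122432941-122433190 (Cyba) and chr5:134229626-134229875 (Ncf1). Capitals mark CCAAT and GGGCGG or its reverse complement CCGCCC.
Cybb: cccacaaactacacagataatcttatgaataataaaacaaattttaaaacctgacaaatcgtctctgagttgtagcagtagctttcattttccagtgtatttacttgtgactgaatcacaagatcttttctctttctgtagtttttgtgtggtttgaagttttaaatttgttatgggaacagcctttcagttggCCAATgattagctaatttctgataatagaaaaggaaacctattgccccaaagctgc
Cyba: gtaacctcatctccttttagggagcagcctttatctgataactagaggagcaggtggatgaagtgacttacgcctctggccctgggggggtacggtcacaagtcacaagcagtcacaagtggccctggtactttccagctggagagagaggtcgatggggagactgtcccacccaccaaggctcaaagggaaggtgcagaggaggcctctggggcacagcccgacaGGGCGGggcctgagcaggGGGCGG
Ncf1: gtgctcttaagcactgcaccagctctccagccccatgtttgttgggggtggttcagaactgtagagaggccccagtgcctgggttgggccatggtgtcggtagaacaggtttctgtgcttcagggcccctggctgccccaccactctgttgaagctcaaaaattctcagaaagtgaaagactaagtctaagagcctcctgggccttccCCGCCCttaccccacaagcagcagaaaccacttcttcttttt
Both strands were searched for CCAAT, for the GC box GGGCGG, for the PU.1 core GAGGAA and for the composite of ETS and IRF factors, GGAA and GAAA parted by 2 bases of any kind. The Cybb window had a GC content of 34.0% and held 1 CCAAT, 56 to 52 bases before the start. The Cyba window had 60.0% GC and held 2 GC boxes, at 24 to 19 and at 6 to 1 bases before the start. The Ncf1 window had 54.4% GC and 1 GC box in reverse, at 42 to 37 bases. No window held GAGGAA or the composite. Of 32851 windows of this length over the genome 33.8% held CCAAT, 32.7% GGGCGG, 23.3% GAGGAA and 2.3% the composite. These matches are letters in a window and no measure of binding.

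In GENCODE annotation of GRCm38 Cybb lies at X:9435252-9487771 and Cyba at 8:122424776-122432930, both on the minus strand. The Cybb window above lies within that span, which holds several transcripts, and its start site is 0 bases from the nearest GENCODE transcript start. Ncf4 (15:78244801-78262580, plus strand) and Rac2 (15:78559167-78572783, minus strand) are on the same chromosome. Ncf1 (5:134220053-134229625, minus), Rac1 (5:143503634-143528036, minus) and Hvcn1 (5:122206804-122242297, plus) share another. Exons of 3 members overlap a gene of the opposite strand: 2309 exonic bases of Rac1 (51.4%) with Daglb, 1574 of Hvcn1 (44.2%) with Tctn1 and 408 of Ncf1 (11.1%) with Gtf2ird2. Whether the authors counted reads by strand is not given in the sources used here. Reads of the opposite gene may thus enter the signals of these 3 members. The percentages are shares of exonic bases, and the share of signal concerned is unknown. At none of the 4 ages did Daglb, Tctn1 or Gtf2ird2 differ between genotypes (lowest FDR 0.333).

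The first comparison asked how the oxidase genes differ between rTg4510 and WT microglia at each age. Signals of Cybb, Cyba and Hvcn1 were higher in rTg4510 from 4 months on, with Cybb at 2.28 to 2.77 times the WT signal. Ncf4, Rac1 and Rac2 differed by less than 1.5 fold, and Ncf1 did not differ beyond the spread of the libraries. No member was lower in rTg4510 at any age with FDR below 0.05. In bulk samples fewer cells of a type and less RNA per cell cannot be told apart.

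DEGs are genes with FDR under 0.05 and more than 1.5 fold change in limma's linear model over the 8 groups. Among the 7 members, 0 were DEGs at 2 months, 2 at 4 months, 2 at 6 months and 3 at 8 months, each of them higher in rTg4510. Over all genes, DEGs were 1.98%, 13.8%, 19.8% and 15.9% at these ages, and DEGs higher in rTg4510 1.58%, 9.47%, 11.3% and 10.5%. With FDR alone 0, 5, 6 and 6 members were higher, against 4.76%, 14.1%, 19.1% and 16% of all genes, and 0 were lower. Among all genes 0.403%, 4.33%, 8.54% and 5.37% were DEGs lower in rTg4510, and 1.27%, 9.1%, 14.9% and 9.78% were lower with FDR alone. At 2 months moderated variances and the quantile normalized values gave 0 DEGs too, and an unadjusted p below 0.05 was reached by 2 members, Ncf4 and Rac2, against 16.5% of all genes. The median log2 fold change of the 7 members was 0.18, 0.31, 0.33 and 0.48, and that of all genes 0.01, -0.04, -0.04 and -0.01. Every rTg4510 library was above every WT library for 0, 5, 6 and 6 members, against 7.49%, 19.1%, 18.2% and 21.2% of all genes.

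**Figure D1:**
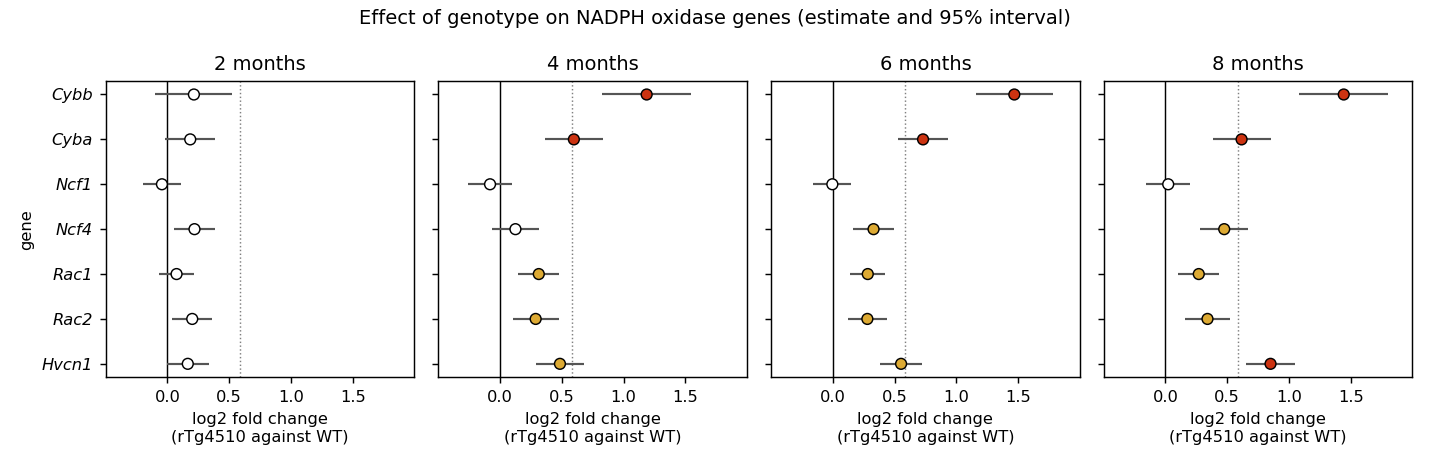
Log2 fold change of each member (rTg4510 against WT) at each age, with its 95% interval from the linear model (20 residual degrees of freedom). Red points are DEGs, yellow points have FDR under 0.05 with a smaller change, white points did not pass, and the dotted line marks 1.5 fold. Cybb is farthest right from 4 months on, and Ncf1 stays at 0 within its intervals.

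Cybb was the member of largest change. At 2 months the 4 WT libraries had log2 signals of 7.39, 7.05, 7.09 and 7.27, and the 4 rTg4510 libraries 7.62, 7.18, 7.37 and 7.50. The groups overlapped, and the log2 fold change of 0.21 ± 0.15 (SE) did not pass (FDR 0.549). At 4 months WT libraries were at 7.52, 7.20 and 7.41 and rTg4510 libraries at 8.45, 8.49 and 8.75. Every rTg4510 library was above every WT library, and the log2 fold change was 1.19 ± 0.17 (FDR 2.11e-05). At 6 months WT libraries were at 7.44, 7.31, 7.66 and 7.74 and rTg4510 libraries at 9.002, 8.97, 9.05 and 9.01. The rTg4510 libraries lay within a narrow band, and the log2 fold change was 1.47 ± 0.15 (FDR 8.91e-08). At 8 months WT libraries were at 7.61, 8.35 and 7.49 and rTg4510 libraries at 9.24, 9.43 and 9.11. WT replicate 2 stood apart from the other WT libraries but remained below every rTg4510 library, and the log2 fold change was 1.44 ± 0.17 (FDR 1.29e-06). The call was lost where only the 6 libraries of that age were fitted (FDR 0.0522).

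Cyba, the partner of Cybb, differed by less between genotypes. At 2 months WT libraries were at 6.89, 6.90, 7.03 and 7.16 and rTg4510 libraries at 7.01, 7.25, 7.50 and 6.97, which overlap (log2 fold change 0.18 ± 0.10, FDR 0.368). At 4 months WT libraries were at 6.95, 7.03 and 6.90 and rTg4510 libraries at 7.61, 7.72 and 7.34. All rTg4510 libraries were higher, by 0.60 ± 0.11 on the log2 scale (FDR 0.000401). This is 1.51 fold, just past the threshold, and it fell under 1.5 fold without rTg4510 replicate 1 (1.48 fold), rTg4510 replicate 2 (1.43 fold) or WT replicate 4 (1.48 fold). With only the 6 libraries of 4 months in the fit its FDR was 0.058. At 6 months WT libraries were at 6.85, 6.94, 6.78 and 6.97 and rTg4510 libraries at 7.59, 7.55, 7.71 and 7.62. The groups were well apart and the log2 fold change was 0.73 ± 0.10 (FDR 4.02e-06). At 8 months WT libraries were at 6.66, 6.73 and 6.87 and rTg4510 libraries at 7.43, 7.33 and 7.35, again without overlap. The difference was 0.62 ± 0.11 (FDR 0.000243) or 1.53 fold, and 1.49 fold without WT replicate 1. It also fell under 1.5 fold after quantile normalization (0.57 on the log2 scale, FDR 0.00062) and with all 32 libraries (0.53, FDR 0.0331).

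Hvcn1, the proton channel, was a DEG at 8 months. WT libraries of that age were at 6.69, 6.72 and 6.75 and rTg4510 libraries at 7.55, 7.57 and 7.60. Both groups were tight and far apart, with a log2 fold change of 0.85 ± 0.09 (FDR 4.77e-07) or 1.80 fold. At 4 months WT libraries were at 6.88, 6.87 and 6.80 and rTg4510 libraries at 7.39, 7.11 and 7.51, and at 6 months at 6.87, 6.79, 6.97 and 7.005 against 7.24, 7.59, 7.44 and 7.59. In both, all rTg4510 libraries were higher, by 0.48 ± 0.09 (FDR 0.000566) and by 0.55 ± 0.08 (FDR 1.59e-05), or 1.40 and 1.47 fold. Hvcn1 became a DEG at 4 months without rTg4510 replicate 2 (1.51 fold) and at 6 months without rTg4510 replicate 1 (1.55 fold) or WT replicate 4 (1.5001 fold). At 2 months the difference was 0.16 ± 0.08 (FDR 0.328), with overlap. With all 32 libraries the 4-month difference was 0.19 (FDR 0.502). Reads of Tctn1 could enter this signal, as given above.

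Of the cytosolic subunits, p47phox and p40phox are known to bind each other. Ncf1 signals ranged from 7.60 to 8.11 over the 14 WT libraries and from 7.74 to 8.07 over the 14 rTg4510 libraries, and the groups overlapped at every age. The log2 fold changes were -0.04, -0.08, -0.0032 and 0.02 at 2, 4, 6 and 8 months (FDR 0.859, 0.549, 0.978 and 0.883). Their 95% intervals together run from -0.26 to 0.20, so a change as large as 1.5 fold lies outside all of them.

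Ncf4 was higher in rTg4510 at the later ages. At 6 months WT libraries were at 6.96, 6.80, 6.98 and 7.04 and rTg4510 libraries at 7.30, 7.31, 7.24 and 7.25, and at 8 months at 6.91, 6.69 and 7.004 against 7.25, 7.41 and 7.37. The groups did not overlap at either age, and the log2 fold change was 0.33 ± 0.08 (FDR 0.0028) and 0.48 ± 0.09 (FDR 0.00046), or 1.26 and 1.39 fold. At 2 and 4 months it was 0.22 ± 0.08 (FDR 0.134) and 0.12 ± 0.09 (FDR 0.375). With all 32 libraries the differences at 6 and 8 months did not pass (FDR 0.262 and 0.114).

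The GTPases Rac1, found in most cell types, and Rac2, largely restricted to blood cells, differed little. At 4 months Rac1 was at 10.04, 10.09 and 10.04 in WT and at 10.32, 10.37 and 10.42 in rTg4510, and at 6 months rTg4510 replicate 3 (10.60) stood above its group, the others being at 10.40, 10.41 and 10.41 against 10.11 to 10.28 in WT. The log2 fold change was at 4 months 0.31 ± 0.08 (FDR 0.00567), 0.28 ± 0.07 at 6 months (FDR 0.0028) and 0.27 ± 0.08 at 8 months (FDR 0.0147). After quantile normalization of the libraries it was 0.0076, -0.08 and -0.03 and passed at none of these ages. Scaling to equal total signal changed neither its direction nor its calls. The direction for Rac1 thus rests on which scaling is chosen. The exons it shares with Daglb add a further uncertainty. Rac2 was higher in rTg4510 by 0.29 ± 0.09 at 4 months (FDR 0.0223), 0.28 ± 0.08 at 6 months (FDR 0.00734) and 0.34 ± 0.09 at 8 months (FDR 0.00644). After quantile normalization its differences stayed above 0 (0.17, 0.15 and 0.23), and the one at 8 months passed (FDR 0.0487) while those at 4 and 6 months did not (FDR 0.158 and 0.130). The calls of both genes were lost with all 32 libraries at each of the 3 ages. The Rac2 call at 4 months was lost without WT replicate 2, WT replicate 4 or rTg4510 replicate 4 (FDR 0.0621, 0.0653 and 0.123), and the Rac1 call at 8 months without WT replicate 2 or rTg4510 replicate 2 (FDR 0.0952 and 0.0624).

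**Figure D2:**
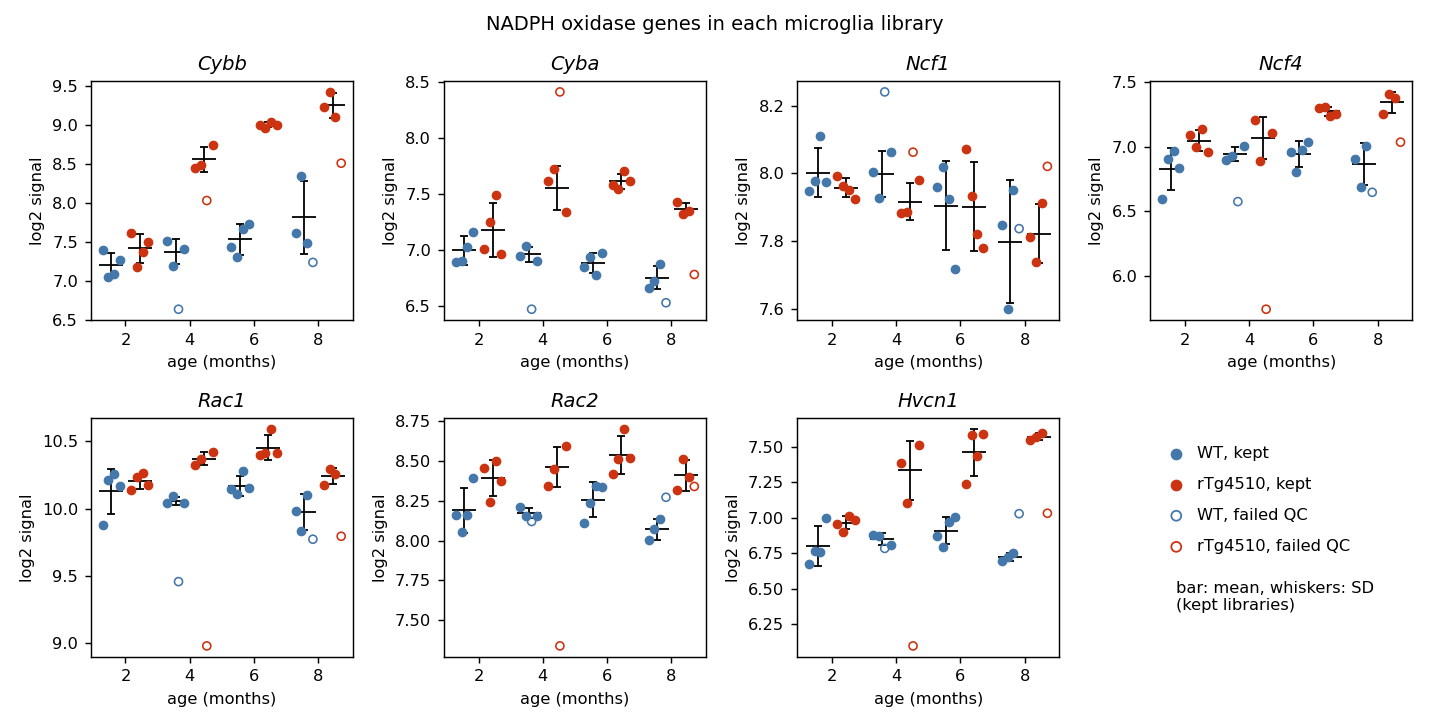
Log2 signal of each member in every library by age, WT in blue and rTg4510 in red, with the mean and SD of the kept libraries in black and the 4 libraries that failed QC as open circles. Vertical scales differ between panels. rTg4510 libraries separate from WT libraries from 4 months on for Cybb, where kept rTg4510 libraries reach 8.45 to 9.43, while those of Ncf1 overlap at every age.

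Whether partner genes changed by unequal amounts was tested on the difference of their log2 signals within a library (two-sided exact permutation tests over libraries, 12 tests in all). Only the change of such a difference between genotypes is read, since its level depends on gene length. Cybb minus Cyba was higher in rTg4510 by 0.03, 0.59, 0.74 and 0.83 at the successive ages. The groups overlapped at 2 months only. The exact p was 0.943, 0.1, 0.0286 and 0.1, where 0.0286 is the smallest that 4 against 4 libraries allow and 0.1 the smallest for 3 against 3. None passed after adjustment over the 12 tests (0.171 at the later ages). With groups of this size no adjusted value under 0.05 could be reached, so the adjusted tests cannot decide whether partners changed unequally. Same-numbered libraries at 6 months were taken as pairs, and the paired exact p was then 0.125, the smallest for 4 pairs. Ncf1 minus Ncf4 was lower in rTg4510, with differences of -0.26, -0.21, -0.33 and -0.45 and exact p of 0.0286, 0.1, 0.0571 and 0.1 (adjusted 0.171). Rac2 minus Rac1 differed by 0.13, -0.03, -0.0033 and 0.07 with exact p of 0.286, 0.7, 1 and 0.4 and with overlap at every age. After quantile normalization it was higher in rTg4510 by 0.23 at 6 months, with exact p of 0.0286.

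**Figure D3:**
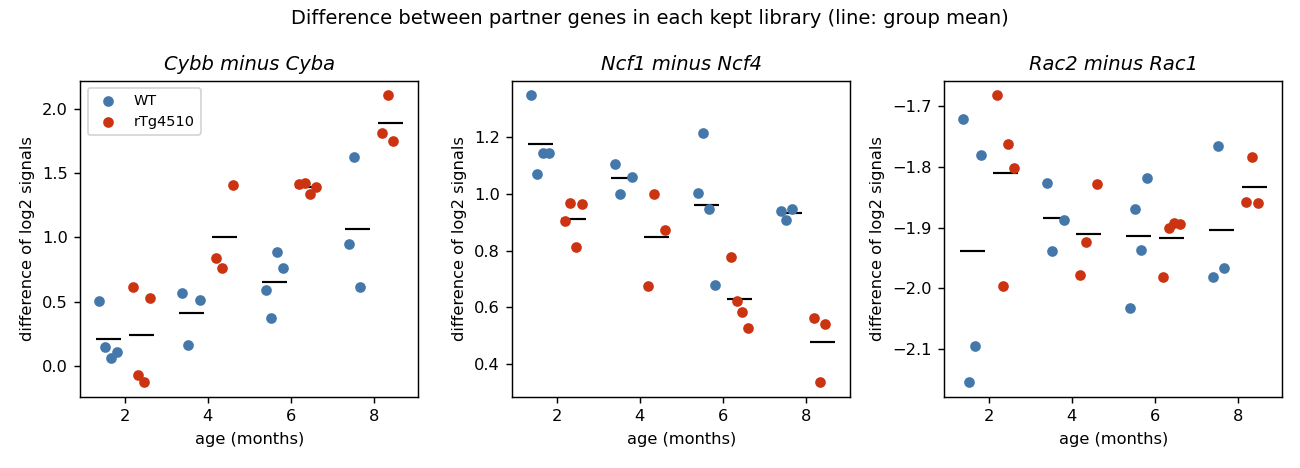
Difference of the log2 signals of 2 partner genes in each of the 28 kept libraries by age, WT in blue and rTg4510 in red, with the group mean as a line. Cybb minus Cyba is above WT in every rTg4510 library from 4 months on, and Rac2 minus Rac1 overlaps at every age.

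The next comparison asked whether the effect of genotype itself differed between ages, as an interaction contrast of the same fit. For Cybb the effect was larger at 4 than at 2 months by 0.97 ± 0.23 (FDR 0.0114) and larger at 8 than at 2 months by 1.23 ± 0.23 (FDR 0.00133). For Hvcn1 it was larger at 8 than at 2 months by 0.69 ± 0.13 (FDR 0.00113). These were 1 and 2 of the 7 members, against 3.77% and 4.85% of all genes that passed in this direction. Cyba differed by 0.41 ± 0.15 at 4 against 2 months and by 0.43 ± 0.15 at 8 against 2 months without passing (FDR 0.104 and 0.0762). With all 32 libraries the Cybb effect at 4 against 2 months was 1.02 (FDR 0.0558) and the Hvcn1 effect at 8 against 2 months 0.47 (FDR 0.524). Between 4 and 6 months, and between 6 and 8 months, 0 members passed in limma's fit with moderated or unmoderated variances, and DEGs were 0.156% and 0% of all genes. At an unadjusted p under 0.05 there were 0 and 1 members (Hvcn1, 0.30 ± 0.13), against 8.15% and 4.52% of all genes.

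Within rTg4510, Cybb rose between 2 and 4 months by 1.14 ± 0.16 on the log2 scale (FDR 4.29e-05) and between 2 and 8 months by 1.84 ± 0.16 (FDR 4.28e-08). The order of its group means was rTg4510 at 8 months (9.26 ± 0.16, SD, n = 3), 6 months (9.01 ± 0.03, n = 4) and 4 months (8.56 ± 0.16, n = 3), with no overlap between neighbours, and then the WT group of 8 months (7.81 ± 0.47, n = 3). The 5 lower groups overlapped with their neighbours, down to WT at 2 months (7.20 ± 0.16, n = 4). Steps between 4 and 6 months (0.44 ± 0.16, FDR 0.195) and between 6 and 8 months (0.25 ± 0.16, FDR 0.497) did not pass on their own. Hvcn1 rose between 2 and 8 months by 0.61 ± 0.09 (FDR 3.2e-05), and its step between 2 and 4 months was 0.37 ± 0.09 (FDR 0.00616, and 0.0602 without rTg4510 replicate 4 of 4 months). Cyba rose between 2 and 4 months by 0.38 ± 0.11 (FDR 0.0174), a call lost without rTg4510 replicate 1 or 4 of 2 months (FDR 0.0608 and 0.0631) or rTg4510 replicate 1 or 2 of 4 months (FDR 0.0638 and 0.113). Its group means peaked at 6 months (7.61 ± 0.07, n = 4), and the difference between 8 and 6 months was -0.24 ± 0.11 (FDR 0.298). At 8 against 2 months the Cyba difference was 0.19 ± 0.11 (FDR 0.231), with overlap. Ncf4 rose between 2 and 8 months by 0.30 ± 0.09 (FDR 0.0164), lost without rTg4510 replicate 2 or 3 of 8 months (FDR 0.0768 and 0.0552).

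DEGs of these age contrasts were 1 member at 4 against 2 months (4.03% of all genes rose) and 2 members at 8 against 2 months (5.72%). With FDR alone there were 3 members in each, against 9.73% and 10.6% of all genes. Between 4 and 6 and between 6 and 8 months 0 members passed with limma's unmoderated or moderated variances, where DEGs were 0.818% and 0.00538% of all genes. At an unadjusted p under 0.05 there were 2 members in each, against 14% and 14.4% of all genes. Genotype effects and age effects share the rTg4510 libraries, so they are not separate evidence.

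In WT Cyba, Ncf1 and Rac1 were lower at 8 than at 2 months, by -0.24 ± 0.11, -0.20 ± 0.08 and -0.16 ± 0.07 on the log2 scale. Each had an unadjusted p under 0.05 in the linear model, but none passed (FDR 0.207, 0.159 and 0.257). The Cyba groups of these ages did not overlap. Cybb was higher at 8 than at 2 months by 0.61 ± 0.16 (FDR 0.037) and was the 1 DEG among the members, against 0.533% of all genes that rose. The call rests on WT replicate 2 of 8 months, without which the difference was 0.34 (FDR 0.217). It was also lost without WT replicate 1 of 8 months (FDR 0.0544) or WT replicate 2, 3 or 4 of 2 months (FDR 0.0933, 0.0915 and 0.0605). The summed signal of 8 border macrophage markers was 11.4 in that replicate and 10.6 and 10.8 in the other WT libraries of 8 months; the part of these cells in its Cybb signal was not tested. Between neighbouring ages 0 members passed in WT with moderated or unmoderated variances, where DEGs were 0.0484%, 0.00538% and 0% of all genes, with 0, 0 and 3 members (Rac1, Rac2 and Hvcn1, all lower at 8 than at 6 months) at an unadjusted p under 0.05, against 10.2%, 8.65% and 9.78% of all genes.

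The enzyme is started by kinases, exchange factors and integrin signals, and 24 genes of that kind were listed. Of these 0 rose and 0 fell by more than 1.5 fold at 2 months, and 1 rose while 3, 3 and 2 fell at 4, 6 and 8 months. The one that rose at all 3 ages was Arhgdia, a GDP-dissociation inhibitor that keeps Rac in the cytosol (0.60 ± 0.10, 0.75 ± 0.09 and 0.68 ± 0.10 on the log2 scale, FDR 9.42e-05, 4.58e-07 and 1.64e-05). Prkca, a protein kinase C isoform, fell by 0.84, 1.06 and 0.996 on the log2 scale (FDR 3.44e-05, 1.16e-07 and 3.08e-06). Elmo1, which with Dock proteins loads Rac with GTP, fell by 0.72, 0.96 and 0.93 (FDR 3.07e-09, 2.31e-12 and 7.09e-11). With FDR alone 0, 3, 3 and 3 of the 24 rose and 1, 9, 10 and 7 fell. Among all genes 1.58%, 9.47%, 11.3% and 10.5% were DEGs higher in rTg4510, and 0.403%, 4.33%, 8.54% and 5.37% were DEGs lower. With FDR alone 4.76%, 14.1%, 19.1% and 16% of all genes rose and 1.27%, 9.1%, 14.9% and 9.78% fell. The same shares hold for the lists that follow. The median log2 fold change of the list was 0.04, -0.20, -0.16 and -0.09.

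NADPH, the electron donor, comes largely from the pentose phosphate pathway, and 7 enzymes of its supply were listed. Only Nadk at 8 months was a DEG (0.64 ± 0.12, FDR 0.000226). Nadk makes NADP by phosphorylating NAD, and was named after its values were seen. With FDR alone 1, 3, 5 and 4 of the 7 rose, against 4.76%, 14.1%, 19.1% and 16% of all genes, and 0 fell. G6pdx, the first enzyme of the pathway, rose at every age by 0.30 ± 0.07, 0.39 ± 0.08, 0.46 ± 0.07 and 0.44 ± 0.08 (FDR 0.0119, 0.0013, 2.4e-05 and 0.000305), and was chosen for naming after its values were seen. The medians were 0.14, 0.27, 0.32 and 0.39.

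Of 6 further genes of charge and pH balance 0, 1, 1 and 0 were DEGs, all higher. The gene at 4 and 6 months was Kcnn4, a calcium-activated potassium channel (1.11 ± 0.20, FDR 0.000276, and 0.75 ± 0.17, FDR 0.00194). With FDR alone 0, 1, 2 and 1 rose and 0, 0, 2 and 1 fell, and the medians were 0.05, 0.08, 0.12 and -0.06. Kcnn4 was named after its values were seen.

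Superoxide is turned into hydrogen peroxide by dismutases, and peroxide is removed by peroxiredoxins, catalase and glutathione peroxidases. Of 19 such genes 0, 5, 8 and 7 were DEGs, all higher in rTg4510, against 1.58%, 9.47%, 11.3% and 10.5% of all genes. With FDR alone 0, 9, 14 and 12 rose, against 4.76%, 14.1%, 19.1% and 16% of all genes, and 0, 0, 1 and 0 fell. DEGs at 3 ages were Srxn1, which repairs overoxidized peroxiredoxins (1.11, 1.21 and 1.75 on the log2 scale at 4, 6 and 8 months, FDR 0.00261, 0.00018 and 1.69e-05), and Prdx1 (1.10, 1.09 and 0.95, FDR 2.04e-07, 1.26e-08 and 1.16e-06). Txn1, the thioredoxin that reduces peroxiredoxins, rose by 0.67, 0.999 and 0.86 (FDR 0.00185, 2.69e-06 and 0.000139). Prdx6 rose by 0.63, 0.90 and 0.95 (FDR 0.0254, 0.000281 and 0.000912). The medians of the list were 0.21, 0.29, 0.52 and 0.50.

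Of 14 transcription factors known at oxidase promoters 12 were in the table. DEGs were 0, 0, 2 and 1, all higher, namely Cebpb (0.63 ± 0.19, FDR 0.0137) and Irf8 (0.61 ± 0.10, FDR 9.47e-05) at 6 months and Irf1 (0.82 ± 0.12, FDR 1.22e-05) at 8 months. These and Spi1 were named after their values were seen. Spi1, which encodes PU.1, had log2 fold changes of -0.02, 0.12, 0.13 and 0.28 without passing (FDR 0.960, 0.431, 0.267 and 0.0504). With FDR alone 0, 2, 6 and 5 rose, against 4.76%, 14.1%, 19.1% and 16% of all genes, and 0 fell. The medians were 0.09, 0.05, 0.17 and 0.32.

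Of 14 other genes of the oxidase family and its chaperones 7 were in the table, and 0 rose by more than 1.5 fold at any age. Duoxa1, a maturation factor of the DUOX oxidases, was the 1 DEG, which on the log2 scale fell by 1.22 at 4 months, fell by 2.25 at 6 months and fell by 1.18 at 8 months (FDR 0.00236, 1.84e-07 and 0.00285). Cybc1, which encodes a chaperone needed for the flavocytochrome, had log2 fold changes of -0.04, -0.39, -0.12 and -0.33 without passing (FDR 0.944, 0.068, 0.501 and 0.121). Nrros, known to limit gp91phox, lay between -0.13 and 0.09 (lowest FDR 0.394). Rap1a and Rap1b encode small GTPases, of which Rap1A copurifies with the flavocytochrome. Rap1a was higher at 8 months by 0.26 ± 0.09 (FDR 0.038) and Rap1b at 6 months by 0.18 ± 0.07 (FDR 0.0475), and neither passed at another age. Noxo1, an organizer of another oxidase, NOX1, was lower at 6 months only (-0.41 ± 0.14, FDR 0.0256). Rac3 lay between -0.25 and 0.34 (lowest FDR 0.487). With FDR alone 0, 0, 1 and 1 of the 7 rose and 0, 1, 2 and 1 fell, and the medians were -0.01, -0.13, -0.12 and 0.09.

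For the 3 members that were DEGs, the genes of most alike profile were sought by the root mean square difference of centred log2 signals over the 28 libraries, among 13846 protein-coding genes. Those of Cybb were Lyz2 (0.141), Lilr4b (0.175) and H2-D1 (0.176), which encode lysozyme, an inhibitory immunoglobulin-like receptor and a class I heavy chain. Those of Cyba were Trem2 (0.113), Ubl5 (0.124) and Gaa (0.124). Those of Hvcn1 were Atp5b (0.121), Pmp22 (0.122) and Psme1 (0.122). The values share libraries and their normalization and are a description.

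Oxidase genes are also strongly expressed by neutrophils, monocytes and border macrophages, so their markers were followed. Of 13 neutrophil markers 0, 1, 11 and 8 were DEGs lower in rTg4510 and 0 were higher. Their summed signal was 9.10 to 9.34 in rTg4510 and 9.92 to 10.9 in WT at 6 months, and 9.25 to 9.98 against 10.7 to 10.95 at 8 months. It overlapped at 2 months (9.56 to 10.99 against 9.82 to 10.4) and at 4 months (9.71 to 10.1 against 9.97 to 10.9). Ly6g, Mpo and Elane were near the lowest value of the library in 16, 12 and 19 of the 28 libraries. The sum is of linear signals and includes Cxcr2, at 7.88 to 9.22 over the 28 libraries. Cxcr2 did not pass at any age (lowest FDR 0.307), so the sum can understate differences of the other neutrophil markers. Of 6 monocyte markers 0, 0, 2 and 1 were higher and 0, 1, 3 and 0 lower DEGs, with sums of 7.16 to 8.58 in rTg4510 and 7.70 to 8.23 in WT over all ages. Of 8 border macrophage markers 0 were higher DEGs and 0, 0, 2 and 0 lower, with sums of 10.3 to 10.9 against 10.6 to 11.4 over all ages. At 4 months both sums were lower in rTg4510 without overlap. Monocyte sums were then 7.16 to 7.37 against 7.74 to 8.10, and border macrophage sums 10.3 to 10.5 against 10.6 to 11.4. At the other ages both overlapped. Of the 8 microglia markers 0 were higher DEGs and 0, 2, 3 and 2 lower, among them Tmem119 and Sall1 at the 3 later ages. Itgam encodes CD11b, the protein used for capture, and was lower in rTg4510 without overlap at every age. Its log2 fold changes were -0.24, -0.38, -0.62 and -0.58 (FDR 0.00798, 9.99e-05, 8.7e-09 and 3.07e-07), past 1.5 fold at 6 months only. Whether this affected which cells were captured was not tested. Other cells of the brain and blood were followed by shorter lists. Of 3 astrocyte markers Gfap was higher at 6 and 8 months (2.87 and 3.47 fold, FDR 0.00043 and 0.000444) while Aqp4 was lower at both (0.43 and 0.38 fold, FDR 0.0265 and 0.0369). Of 3 endothelial markers Flt1 was higher at 4, 6 and 8 months (1.97, 3.70 and 2.24 fold, FDR 0.0137, 2.42e-06 and 0.00331) while Pecam1 was lower at each (0.39, 0.23 and 0.24 fold, FDR 1.76e-06, 2.01e-10 and 5.89e-09). Summed astrocyte signals were 6.40 to 8.56 in rTg4510 and 6.95 to 9.83 in WT over all ages, and endothelial ones 6.53 to 8.34 against 6.42 to 8.51. Of 4 B cell markers 2 were lower DEGs at 4 months, Cd79a (0.32 fold, FDR 0.0186) and Cd79b (0.59 fold, FDR 0.012), with sums of 4.88 to 6.61 against 5.83 to 7.27 over all ages. The B cell sums did not overlap at 4 months only (5.13 to 6.12 against 6.27 to 7.27). Of 2 measured neuron markers Snap25 was lower at 6 months (0.37 fold, FDR 0.0199), and the 4 oligodendrocyte markers had 0 DEGs by limma and 0 at an unadjusted p under 0.05, with sums of 5.72 to 9.21 against 5.81 to 10.3. Single markers were chosen for naming after their values were seen. The part of these cell types in the signals of the 7 members was not tested.

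**Figure D4:**
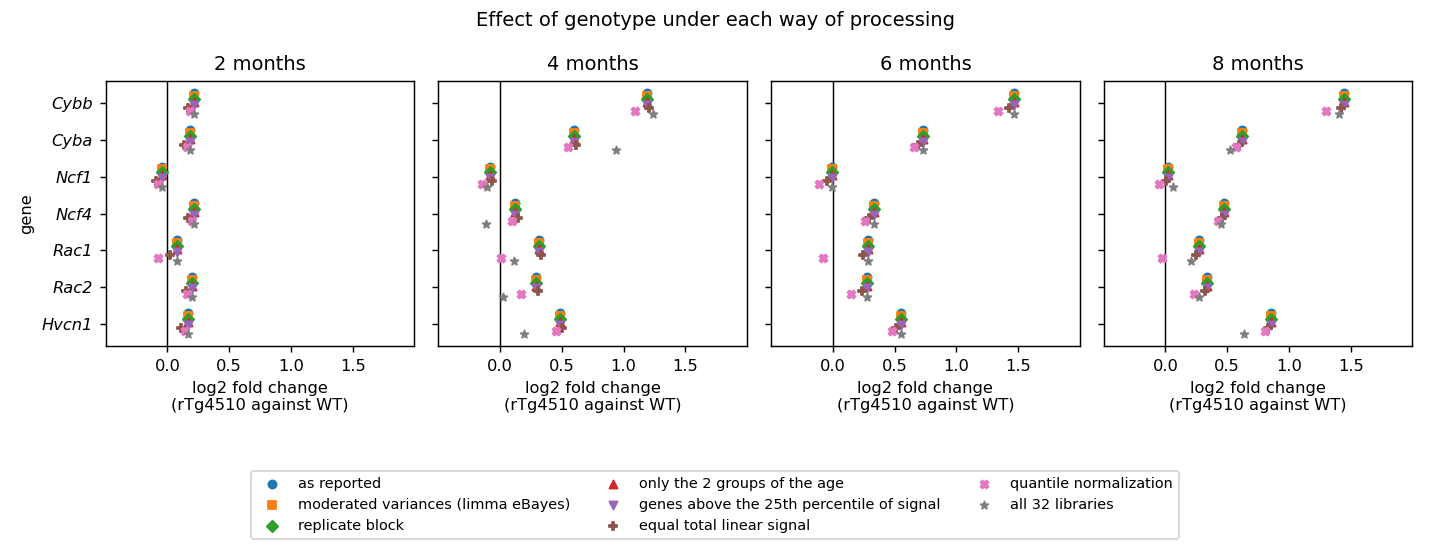
Log2 fold change of each member (rTg4510 against WT) at each age under the processing reported here and 7 alternatives, 1 symbol each. Estimates of Cybb and Cyba stay right of 0 at every age, those of Rac1 fall to between -0.08 and 0.0076 after quantile normalization, and those with all 32 libraries spread most at 4 months.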

How the data were processed

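Microglia RNA of rTg4510 and WT mice was sequenced in 32 libraries of paired reads. The deposited values are log2 gene signals. The authors summed exon reads per library, dropped exons with few counts in most samples, combined the exons of each gene in a robust linear fit, and median normalized the log2 signals. The submitters' processing notes name GRCm38, and the aligner and the use of strand are not given in the sources used here. Per-sample columns left unused numbered 0. Of the Entrez numbers 95.9% matched RefSeq.

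Group, age and replicate number came from the labels. Computed here with limma 3.58.1 in R 4.3.3 were a model of 8 group means with unmoderated variances, 16 contrasts, and Benjamini-Hochberg FDR over the 18588 genes of a contrast. The model was tested on simulated data with 200 changed genes. There 62.1% to 69.0% of 2-fold and 85.7% to 91.7% of 4-fold changes were called at the 4 ages, with 3 to 4 false calls. The simulation changed far fewer genes than the data did, where DEGs were 13.8% to 19.8% of genes from 4 months on. Changed genes were drawn from all genes, while the members had residual SDs below the median. The recovered shares thus do not give the power for the members. A gene that did not pass may still have changed. Alternatives were moderated variances, all 32 libraries, 2 groups per fit, quantile or total-signal scaling, a low-signal filter, a replicate block and each library left out. Promoters and overlaps were read with Python 3.11.15 from RefSeq and GENCODE tables, and figures drawn with matplotlib 3.10.9. The members, gene lists and pairs were chosen with earlier results of these data known. Named were all members, listed genes that were DEGs at 3 or more ages, any measured gene of the oxidase family list (1 gene of it is not reported here), and the 3 genes of most alike profile for each member that was a DEG, and genes whose exons overlap a member. Other genes are said in the text to have been chosen after their values were seen.

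Labels give both genotypes the same replicate numbers. Same-numbered libraries of both genotypes deviated together from their groups, with r across genes of 0.131 to 0.153 at 6 months and 0.150 to 0.291 at 8 months, so the numbers were taken to pair libraries at these ages, from the values alone. At 2 months r was 0.135, 0.125, 0.065 and 0.167 for replicates 1 to 4, all above 0 but not all above 0.1. Each was the highest r of its WT library, as differently numbered libraries had r of -0.194 to 0.082 at 2 months. They had -0.127 to 0.091 at 6 months and -0.259 to -0.028 at 8 months. At 4 months the same-numbered r was -0.100, 0.124 and -0.082 for replicates 1, 2 and 4. Crosswise it was 0.152 for WT replicate 1 with rTg4510 replicate 4, and 0.154 for WT replicate 4 with rTg4510 replicate 1. The replicate block and the paired tests were run as alternatives at every age, always by replicate number. At 4 months they thus did not follow the crosswise correlation. P-values measure the spread between pools of animals.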

Additional observations from a re-analysis of the deposited data

Results flagged for a closer look

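Rac1 in rTg4510 replicate 3 at 6 months (log2 signal 10.60) stood above the other 3 libraries of its group, with a gap of 0.934 of the group's range (Dixon's critical value for 4 libraries was passed). It was the 1 such case among 28 member and group combinations of 4 libraries, where chance gives about 1 in 20.

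The effect of genotype differed between ages by an interaction test for Cybb at 4 against 2 months (0.97) and at 8 against 2 months (1.23) and for Hvcn1 at 8 against 2 months (0.69).

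Libraries that failed the authors' QC entered only the fits with all 32 libraries. In rTg4510 replicate 3 of 4 months Cybb was at 8.03, Cyba at 8.42 and Ncf1 at 8.06, each above the highest kept WT library of that age (7.52, 7.03 and 8.06, Ncf1 by less than the last digit shown). In the same library Ncf4 was at 5.74, Rac1 at 8.98, Rac2 at 7.34 and Hvcn1 at 6.10, each below the lowest kept WT library (6.90, 10.04, 8.15 and 6.80). In rTg4510 replicate 4 of 8 months Cybb was at 8.51, Ncf1 at 8.02, Ncf4 at 7.04, Rac2 at 8.34 and Hvcn1 at 7.03, against highest kept WT values of 8.35, 7.95, 7.004, 8.13 and 6.75. There Cyba was at 6.78, within the kept WT libraries (6.66 to 6.87), and Rac1 at 9.79, below the lowest of them (9.83). The failed WT library of 4 months was below every kept WT library of its age for Cybb (6.63), Cyba (6.47) and Ncf4 (6.58). The same held for Rac1 (9.46), Rac2 (8.12) and Hvcn1 (6.78), while Ncf1 (8.24) was above. The failed WT library of 8 months was below for Cybb (7.24), Cyba (6.53), Ncf4 (6.65) and Rac1 (9.77). For Rac2 (8.27) and Hvcn1 (7.03) it was above, and for Ncf1 (7.84) within.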

How the results depend on the processing

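Moderated variances and the low-signal filter moved no count of members, and no member's call. The replicate block pairs by number at 4 months too, where replicates 1 and 4 correlated crosswise. It left the counts of DEGs at 0, 2, 2 and 3 and changed no member's call. It took Cybb minus Cyba at 6 months (0.74) and Ncf1 minus Ncf4 at 2 months (-0.26) from an exact p of 0.0286 to 0.125, the smallest that 4 pairs allow. With only the 2 groups of an age fitted, members that were DEGs at 4 months numbered 1, and members with FDR under 0.05 numbered 2 at 4 months and 2 at 8 months; fewer libraries give fewer degrees of freedom there. After quantile normalization 1 member was a DEG and 3 had FDR under 0.05 at 4 months, and 4 had FDR under 0.05 at 6 months in place of 6. DEGs at 8 months fell from 3 to 2 after quantile normalization and with all 32 libraries (Cyba lost in both) and with only the 2 groups fitted (Cybb lost). With all 32 libraries members with FDR under 0.05 numbered 2, 3 and 3 at 4, 6 and 8 months, and DEGs numbered 0 for the genotype effect at 4 against 2 months, 1 at 8 against 2 months, 2 and 1 within rTg4510 at 4 and at 8 against 2 months, and 0 in WT at 8 against 2 months. The last count was 0 with equal total signal too. Reversed by quantile normalization were Rac1 at 2, 6 and 8 months (-0.0734, -0.0819 and -0.0280), Ncf1 at 8 months (-0.0528), and Rac2 minus Rac1 at 4 months (0.17) and 6 months (0.23). Reversed with all 32 libraries were Ncf4 at 4 months (-0.12) and Ncf1 minus Ncf4 at 4 months (0.0095), while Cybb minus Cyba at 8 months reached an exact p of 0.0286 (0.88). The cause was not tested. Leaving out 1 library in turn, members with FDR under 0.05 at 2 months numbered 0 to 1 (Rac2, without WT replicate 4, FDR 0.0452), DEGs at 4 months 1 to 2 and in WT at 8 against 2 months 0 to 1. The ranges that crossed 0 were -0.0089 to 0.12 for Rac1 at 2 months, -0.066 to 0.0374 and -0.0772 to 0.0982 for Ncf1 at 6 and 8 months, -0.0949 to 0.151 for Cybb minus Cyba at 2 months, and -0.0662 to 0.0088 and -0.0428 to 0.0288 for Rac2 minus Rac1 at 4 and 6 months. Ncf1 minus Ncf4 ranged from -0.30 to -0.21 at 2 months and from -0.43 to -0.25 at 6 months. DEGs numbered 2 to 3 at 6 and at 8 months, and the counts of the interactions and within rTg4510 did not move in these fits. Among all genes, DEGs at 2 months that were higher in rTg4510 made up 68.3% after quantile normalization and 67.7% with equal total signal. Precision is set by the 3 or 4 pools of a group.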
